A study of Homo sapiens with 10 samples.

Results

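The DNA replication and E2F target genes are a set of 40 genes that code for the machinery that copies chromosomes in S phase and for the enzymes, cyclins and repair proteins that accompany it. Members were the rows of the deposited table whose gene name equalled 1 of the 40 names, and all 40 were found among 14785 rows. RNA came from H1 cells, an embryonic stem cell line of human origin that is in wide use, in which a short hairpin RNA (shRNA) against E2F6, SMARCA4, MAFK or KDM1A was delivered with virus packaged in 293T cells and collected at 36 h. Puromycin selection began 2 days later in all groups, the shLUC control included, which carried an shRNA against luciferase. Each of the 5 groups (shLUC, shE2F6, shSMARCA4, shMAFK and shKDM1A) had 2 libraries, described by the submitters as biological duplicates, so p-values measure the spread between such duplicates. The hairpin sequences and the number of hairpins per gene are not given in the sources used here. The values are whole-number normalized tag counts, called values below. The read depth behind them is unknown, and levels of different genes are not compared because the values are not per length.

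Before S phase, the origin recognition complex, CDC6 and CDT1 load the MCM helicase onto origins of replication, a step called licensing. MCM10, CDC45 and the GINS complex then switch the helicase on, primase and the DNA polymerases copy the strands, and the sliding clamp PCNA with its loader (the RFC proteins), FEN1 and LIG1 complete the lagging strand. Most of these genes are switched on by E2F factors, which the RB family holds in check. E2F6 is a repressive member of the E2F family that lacks the domains for activation and for RB binding and works with Polycomb proteins, and embryonic stem cells are known for a short G1 phase with high E2F target expression.

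The promoters of members were searched for E2F motifs because the set is defined by its regulation by E2F. RefSeq promoters (build GRCh38.p14, 250 bases before to 50 bases after the RefSeq start) were matched for 36 of 40 members. MCM4, MCM5, GINS4 and CCNE2 were not matched. For each matched gene only the first listed window was searched, so any other start of that gene was not. An E2F 8-mer (TTTCCCGC, TTTCGCGC, TTTGCCGC or TTTGGCGC, both strands) was found in 18 of 36 promoters, against 564 of 10488 matched genes of the table (5.38%) and 3.31% of 35116 promoters. The motif GGCGGGAA, shared by E2F and the DREAM complex and overlapping TTTCCCGC read on the other strand, was in 10 of 36 promoters (27.8%), against 5.21% of matched genes of the table. At least 1 of these motifs was in 22 of 36 promoters (61.1%), against 9.07% of matched genes. Overlapping matches counted as 1 site gave 28 separate sites, of which 18 began within the last 100 bases before the start. CDT1, MCM3, MCM6, MCM7 and RFC4 held 2 or more separate sites. CCAAT, the letters of the NF-Y site, was in 19 of 36 promoters (52.8%, against 36.8%), and TTTGAA, the letters of the CHR element of mitotic genes, was in 1 (2.78%, against 9.7%). A match is a description of the letters in this window and not a measured binding site.

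The promoters of the member with the greatest change in each of the 6 role groups in shE2F6 are printed 5′ to 3′ on the strand of the gene, to show that members with and without the motif stand among them. Capitals mark matches to an E2F motif. They lie at chr16:88803539-88803838 (plus strand, CDT1), chr1:35769929-35770228 (minus, CLSPN), chr10:13161308-13161607 (plus, MCM10), chr19:50384073-50384372 (plus, POLD1), chr12:118016453-118016752 (plus, RFC5) and chr2:10122489-10122788 (plus, RRM2). The CDT1 promoter holds 2 separate matches, the CLSPN promoter holds 2 overlapping ones, and the other 4 hold none.
CDT1: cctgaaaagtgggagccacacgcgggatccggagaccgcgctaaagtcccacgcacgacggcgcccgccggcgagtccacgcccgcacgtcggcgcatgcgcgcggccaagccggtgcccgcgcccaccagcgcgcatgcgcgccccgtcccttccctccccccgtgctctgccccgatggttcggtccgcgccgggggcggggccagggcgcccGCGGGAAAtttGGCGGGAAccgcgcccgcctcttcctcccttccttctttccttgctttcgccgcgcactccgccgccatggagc
CLSPN: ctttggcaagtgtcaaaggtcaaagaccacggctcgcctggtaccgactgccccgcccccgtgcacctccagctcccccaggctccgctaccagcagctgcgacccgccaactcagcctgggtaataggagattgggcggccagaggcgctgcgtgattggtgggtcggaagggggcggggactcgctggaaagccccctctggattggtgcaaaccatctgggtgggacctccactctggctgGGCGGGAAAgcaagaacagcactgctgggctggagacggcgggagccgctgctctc
MCM10: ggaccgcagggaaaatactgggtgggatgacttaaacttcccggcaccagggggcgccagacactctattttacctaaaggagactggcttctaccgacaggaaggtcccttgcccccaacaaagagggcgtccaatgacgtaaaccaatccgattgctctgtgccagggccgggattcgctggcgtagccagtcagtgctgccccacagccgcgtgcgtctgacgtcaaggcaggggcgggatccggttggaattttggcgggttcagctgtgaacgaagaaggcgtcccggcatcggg
POLD1: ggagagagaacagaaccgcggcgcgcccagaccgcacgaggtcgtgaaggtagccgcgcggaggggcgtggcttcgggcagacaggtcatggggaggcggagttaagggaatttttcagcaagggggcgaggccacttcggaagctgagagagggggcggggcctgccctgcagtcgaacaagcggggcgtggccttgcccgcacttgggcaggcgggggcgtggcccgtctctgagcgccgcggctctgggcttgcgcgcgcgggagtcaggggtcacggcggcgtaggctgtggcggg
RFC5: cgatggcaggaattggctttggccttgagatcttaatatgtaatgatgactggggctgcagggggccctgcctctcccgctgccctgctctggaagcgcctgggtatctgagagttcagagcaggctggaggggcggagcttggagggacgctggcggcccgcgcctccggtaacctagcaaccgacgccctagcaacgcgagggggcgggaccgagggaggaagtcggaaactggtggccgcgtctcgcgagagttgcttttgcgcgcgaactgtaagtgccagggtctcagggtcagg
RRM2: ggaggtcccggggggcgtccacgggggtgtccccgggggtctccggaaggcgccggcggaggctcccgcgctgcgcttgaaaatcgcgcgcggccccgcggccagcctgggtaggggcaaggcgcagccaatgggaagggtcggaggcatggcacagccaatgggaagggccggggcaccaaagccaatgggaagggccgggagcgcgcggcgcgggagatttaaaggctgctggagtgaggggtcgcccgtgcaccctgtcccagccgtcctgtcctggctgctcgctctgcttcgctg

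The median log2 change in shE2F6 was -0.02 over the 22 members with a motif and 0.11 over the 14 matched members without one in the window searched. In shSMARCA4 these medians were 0.22 and 0.25. Over all matched genes of the table the medians in shE2F6 were -0.01 both with and without a motif. These are descriptions with no test.

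All 10 markers of pluripotent cells were in the table. The table lists 3 of 5 ectoderm markers, 2 of 5 mesoderm markers, 1 of 5 endoderm markers and 1 of 5 trophoblast markers. Library totals lay between 22836548 and 22855295 and the median was 594 in every library, with 80.3% of ranks holding the same value in all 10 libraries, so identical values of a gene in a pair of libraries can come from equal ranks. The replicate SD over all rows (root mean square, log2 scale) was 0.53 in shKDM1A and between 0.26 and 0.33 in the other groups. Over the 40 members it was 0.14 in shLUC, 0.15 in shMAFK, 0.23 in shSMARCA4, 0.24 in shE2F6 and 0.25 in shKDM1A. E2F6 (on chromosome 2, 11444375 to 11466177, minus strand, GRCh38) had values of 491 and 553 in shLUC and 336 and 304 in shE2F6, which is 61.3% of control. Both shE2F6 libraries were below all 8 others for E2F6, and the log2 change was -0.70 (SE 0.19, limma adjusted p = 0.774). SMARCA4 was at 12.7% of control in shSMARCA4 (limma adjusted p = 8.55e-05), KDM1A at 42.1% in shKDM1A (adjusted p = 0.132) and MAFK at 59.6% in shMAFK (adjusted p = 0.572). MAFK was at 82 and 216 in the shMAFK libraries against 212 and 288 in shLUC, so the second shMAFK library overlapped the control.

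With E2F6 RNA at this level, the median log2 change of the 40 members was 0.00 in shE2F6 against shLUC, with a range of -0.28 to 0.60, and the median over all rows was also 0.00. The 2 shE2F6 libraries lay on opposite sides of the control: the median deviation of members from the shLUC mean was 0.11 in replicate 1, with 30 of 40 above, and -0.07 in replicate 2, with 17 of 40 above. Of the 40, 20 had a higher mean (49.2% of all rows did) and 20 a lower one. None of the 40 members passed the adjusted threshold of 0.05 in limma, and the share of all rows that did was 0.0%. At an unadjusted p under 0.05 the same test gave 2 members, both higher (RRM2 and CLSPN), which is 5.0% of members against 5.09% of all rows in either direction, 2.55% in this direction and 2.54% in the other. Both shE2F6 libraries lay above both shLUC libraries for 9 members (22.5%, against 20.3% of all rows) and below them for 3 (7.5%, against 20.4%). The 9 were MCM5, MCM10, GINS2, POLD1, POLE, RRM2, TK1, CHEK1 and CLSPN, and the 3 were CDC45, RFC3 and RFC4. These shares were near those over all rows, apart from the smaller share below the controls. The 95% interval of the log2 change lay within a 2-fold change in either direction for 38 of 40 members, the exceptions being CDT1 and CLSPN, against 12133 of 14785 rows. In a bulk sample, fewer cells in S phase and less RNA per cell cannot be told apart.

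**Figure D1:**
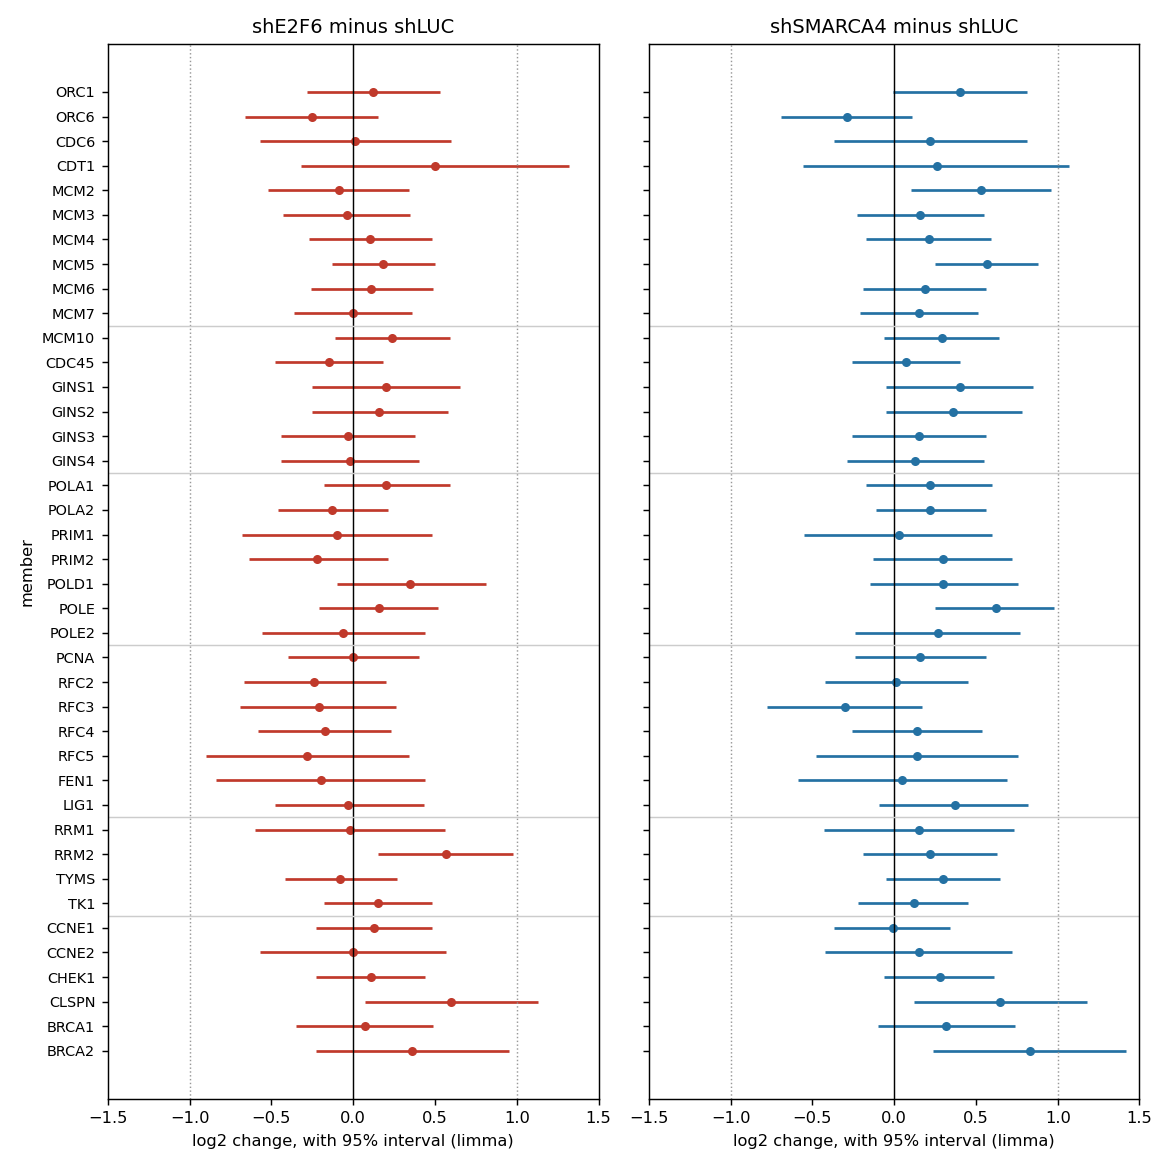
Log2 change of each of the 40 members (vertical axis, in 6 role groups separated by grey lines) in shE2F6 (left) and shSMARCA4 (right) against shLUC, with points for the limma estimate and lines for its 95% interval; dotted lines mark a 2-fold change. The shE2F6 points lie on both sides of 0 between -0.28 and 0.60, and 37 of 40 shSMARCA4 points lie above 0.

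Licensing genes had a median log2 change of 0.06 in shE2F6, with 7 of 10 means higher and 0 called. CDT1 (chromosome 16, 88803213 to 88809258, plus strand), the loading factor of the MCM helicase, had values of 2586 and 2494 in shLUC and 2530 and 5110 in shE2F6. One shE2F6 library was thus at the control level and the other was the highest of all 10 libraries. For CDT1 the difference from shLUC was 0.50 on the log2 scale (SE 0.36, 95% interval -0.32 to 1.32, limma adjusted p = 1.0), and it was -0.01 without shE2F6 replicate 2 and 1.01 without shE2F6 replicate 1. CDT1 was also uneven in shSMARCA4 (2265 and 4066) and in shKDM1A (2046 and 3046), and even in shMAFK (2430 and 2354). ORC6, a subunit of the origin recognition complex, was at 865 and 1100 in shLUC and 872 and 766 in shE2F6, with overlapping groups and a difference of -0.25 (log2, SE 0.18, adjusted p = 1.0). With shLUC replicate 2 left out it was -0.08, and with replicate 1 left out -0.43. The 6 subunits of the MCM helicase had log2 changes of between -0.09 (MCM2) and 0.18 (MCM5). ORC1 and CDC6, which act before CDT1 at origins, had changes of 0.12 and 0.01. MCM7 was close to the control in both shE2F6 libraries (6928 and 6249, against 6578 and 6578 in shLUC).

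Helicase activation genes were near the control, with a median log2 change of 0.07, 3 of 6 means higher and 0 called. MCM10, which binds the loaded helicase and helps to start unwinding, was at 885 and 898 in shLUC, 1034 and 1076 in shE2F6, 1176 and 1007 in shSMARCA4, 995 and 1084 in shMAFK and 1186 and 1010 in shKDM1A. All 8 knockdown libraries were above both controls for MCM10. In shE2F6 MCM10 was 0.24 higher on the log2 scale (SE 0.16, limma adjusted p = 1.0). CDC45, a subunit of the active helicase, was at 597 and 602 in shLUC and 560 and 520 in shE2F6, with a log2 change of -0.15. The 4 GINS subunits ranged from -0.03 (GINS3) to 0.20 (GINS1).

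Polymerase and primase genes had a median log2 change of -0.06, with 3 of 7 means higher and 0 called. POLD1, the catalytic subunit of polymerase delta, was at 4613 and 4646 in shLUC and 5302 and 6580 in shE2F6. Both shE2F6 libraries were higher for POLD1, and the difference was 0.35 on the log2 scale (SE 0.20, limma adjusted p = 0.996), and 0.20 without shE2F6 replicate 2. POLD1 was likewise higher in shSMARCA4 (5369 and 6078), lower in shMAFK (3902 and 3604) and split in shKDM1A (5708 and 3874). POLE and POLE2 of polymerase epsilon had log2 changes of 0.16 and -0.06 in shE2F6, POLA1 and POLA2 of polymerase alpha of 0.20 and -0.13, and the primase subunits PRIM1 and PRIM2 of -0.10 and -0.22.

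Clamp, clamp loader and fragment joining genes had the lowest median of the role groups in shE2F6, -0.20, with 0 of 7 means higher and 0 called. This came mainly with 1 library: the median deviation from the shLUC mean was -0.03 in shE2F6 replicate 1, with 3 of 7 above that mean, and -0.36 in replicate 2, with 0 of 7 above it. RFC5, a subunit of the clamp loader, was at 1092 and 928 in shLUC and 985 and 698 in shE2F6, a difference of -0.28 on the log2 scale (SE 0.28, limma adjusted p = 1.0) that was -0.03 without shE2F6 replicate 2. RFC2, another loader subunit, was at 1264 and 1155 in shLUC and 1181 and 887 in shE2F6, with a log2 change of -0.24 (SE 0.19) that was -0.03 without the same library. PCNA, the clamp, was at 4906 and 3928 in shLUC and 4808 and 4003 in shE2F6, so its groups overlapped. The loader subunits RFC3 and RFC4 had log2 changes of -0.21 and -0.17, the flap nuclease FEN1 of -0.20 and the ligase LIG1 of -0.03.

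Nucleotide supply and checkpoint genes held the 2 members with an unadjusted p under 0.05. RRM2 (chromosome 2, 10120698 to 10131419, plus strand), the regulated subunit of ribonucleotide reductase, was at 2442 and 1809 in shLUC, 3110 and 3110 in shE2F6, 2594 and 2302 in shSMARCA4, 2241 and 2224 in shMAFK and 1866 and 2249 in shKDM1A. Both shE2F6 libraries were above the other 8 libraries for RRM2. The difference of RRM2 from shLUC was 0.57 on the log2 scale (SE 0.18, 95% interval 0.15 to 0.98, limma adjusted p = 0.885), and it was 0.35 without shLUC replicate 2. RRM1, the large subunit of the same enzyme, was at 2967 and 2544 in shLUC and 3074 and 2374 in shE2F6, with overlapping groups. TYMS and TK1, which make thymidine nucleotides, had log2 changes of -0.08 and 0.15. CLSPN (chromosome 1, 35720218 to 35769967, minus strand), the adaptor claspin that helps to activate the checkpoint kinase CHEK1, was at 597 and 706 in shLUC, 872 and 1115 in shE2F6, 956 and 1084 in shSMARCA4, 674 and 891 in shMAFK and 987 and 670 in shKDM1A. Its libraries in shE2F6 and shSMARCA4 did not overlap the controls, while those in shMAFK and shKDM1A did. The log2 change of CLSPN in shE2F6 was 0.60 (SE 0.23, 95% interval 0.07 to 1.13, limma adjusted p = 0.939). Of the other checkpoint and repair genes, CHEK1 had a log2 change of 0.11, BRCA1 of 0.07 and BRCA2 of 0.36, and the cyclin E genes CCNE1 and CCNE2 of 0.13 and 0.00.

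**Figure D2:**
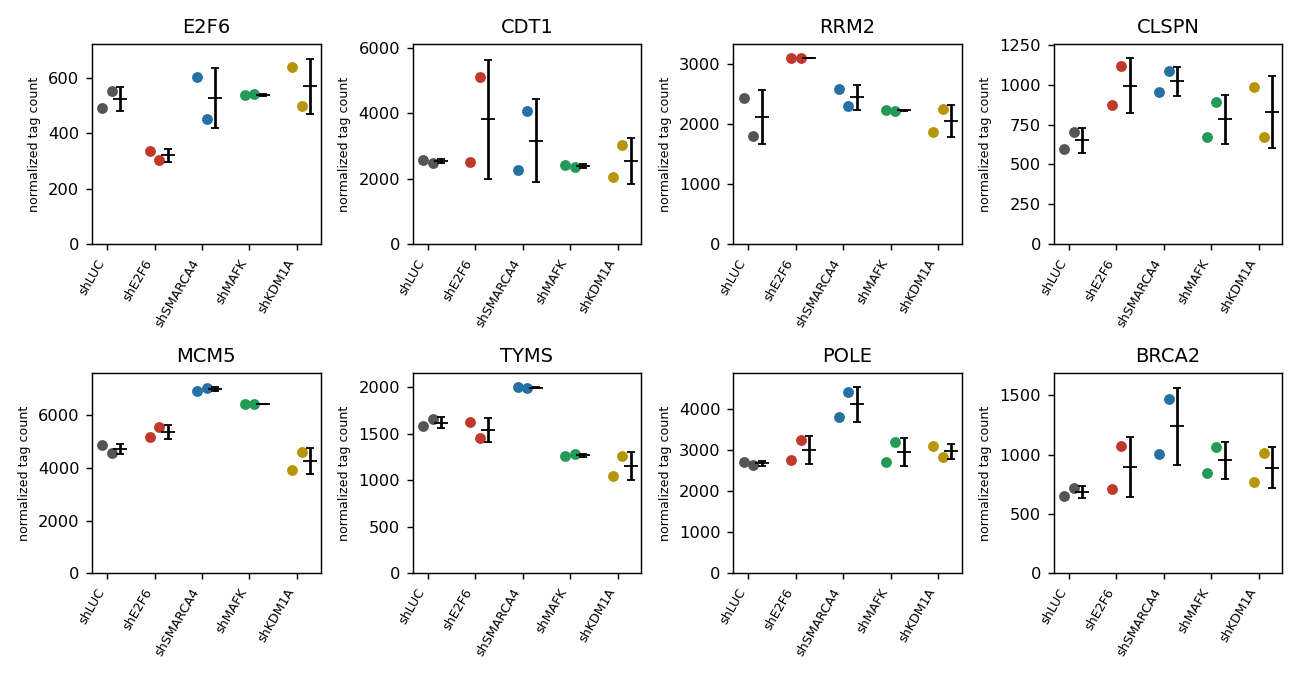
Normalized tag count (vertical axes, from 0) of E2F6 and 7 members in the 5 groups (horizontal axes); coloured points are the 2 libraries of a group and the black bar beside them is their mean with 1 SD. The shE2F6 points for RRM2 lie at 3110 above the other libraries, and those for CDT1 lie at 2530 and 5110.

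The 2 shE2F6 libraries differed from each other in these genes in much the same way as the 2 shSMARCA4 libraries. Replicate 1 had the higher value for 28 members in shE2F6 and 27 in shSMARCA4. Over the 40 members, the replicate differences (replicate 1 minus replicate 2, log2) of the shE2F6 and shSMARCA4 groups had Pearson's r = 0.81 and Spearman's rho = 0.72, and r was 0.75 without CDT1 and 0.66 without CDT1, BRCA2, CLSPN and POLD1. Over all rows of the table r was 0.337 for this pair of groups. These correlations are across genes, which are not independent replicates, and are given as a description. Replicate 1 was higher in both groups for 24 members, replicate 2 in both for 9, and 6 members went opposite ways. CDT1 (-1.01 in shE2F6 and -0.84 in shSMARCA4) and BRCA2 (-0.59 and -0.54) were higher in the second library of each group. The other 9 pairs of groups had r between -0.20 and 0.47. The labels do not say that a number marks a shared day or batch.

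**Figure D3:**
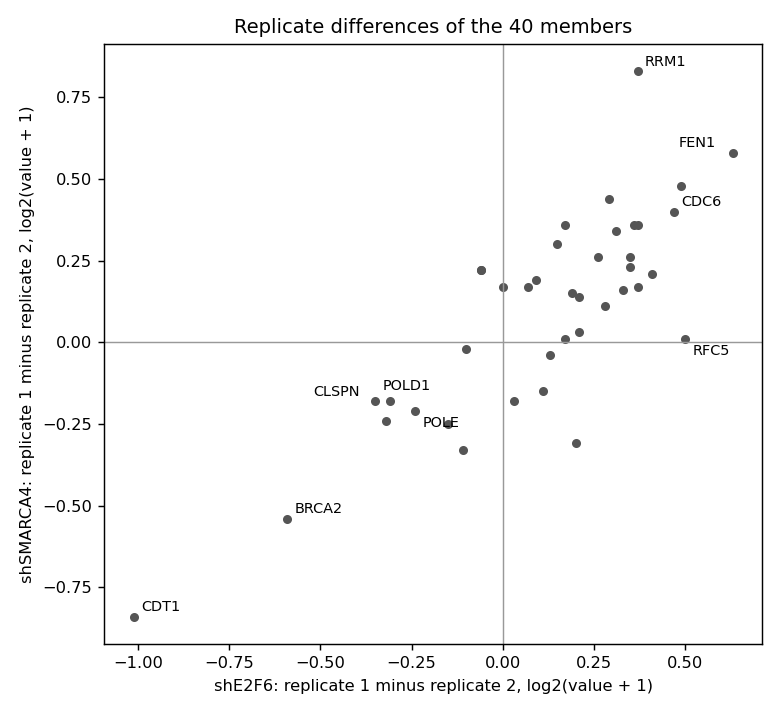
Difference between replicate 1 and replicate 2 of each of the 40 members on the log2(value + 1) scale in shE2F6 (horizontal axis) and shSMARCA4 (vertical axis), 1 point a member. Points run from CDT1 (-1.01 and -0.84) at the lower left to FEN1 and RRM1 at the upper right, with r = 0.81.

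Of the 4 knockdowns, shSMARCA4 had the highest median change of the replication genes. SMARCA4 codes for BRG1, an ATPase of the BAF chromatin remodelling complex. The median log2 change of the 40 members was 0.22 in shSMARCA4 (all rows 0.01), with a range of -0.30 to 0.83. The mean was higher for 37 of 40 members (92.5%, against 50.9% of all rows), the exceptions being ORC6, RFC3 and CCNE1. Both libraries lay above both controls for 21 members (52.5%, against 25.6%) and below them for 2 (5.0%, against 25.4%). None of the 40 members passed the adjusted threshold in limma, however, against 4.18% of all rows. At an unadjusted p under 0.05 there were 5 (12.5%, against 16.3% of all rows), all higher (7.78% of rows in this direction, and 8.53% in the other): MCM2, MCM5, POLE, CLSPN and BRCA2. No member changed by 2-fold or more between the group means in this or any other comparison. Few rows of the table did: 5.76% in shSMARCA4, 1.09% in shE2F6, 2.28% in shMAFK and 3.26% in shKDM1A.

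The median of the 40 members was raised in both shSMARCA4 libraries, and the median change of the group was positive in all 6 role groups. The median deviation of members from the shLUC mean was 0.29 in replicate 1 (35 of 40 above) and 0.17 in replicate 2 (31 of 40 above), against 0.03 and -0.03 in the shLUC libraries themselves. The summed value of the 40 members, which weights members with high values most, was 103228 and 94262 in shSMARCA4. It was between 79104 and 84587 in shLUC and between 78425 and 89672 in the other 6 libraries. The role group medians in shSMARCA4 were 0.22 for licensing (9 of 10 higher), 0.22 for helicase activation (6 of 6), 0.27 for polymerases (7 of 7), 0.14 for the clamp group (6 of 7), 0.18 for nucleotide supply (4 of 4) and 0.30 for cyclin E, checkpoint and repair (5 of 6). In shSMARCA4 replicate 2 alone, the median deviation was 0.03 for the clamp group and 0.07 for nucleotide supply. These were no higher than in shLUC replicate 1 (0.06 and 0.08). The shSMARCA4 group had the highest mean of the 5 groups for 27 of 40 members, and shLUC had it for 0.

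**Figure D4:**
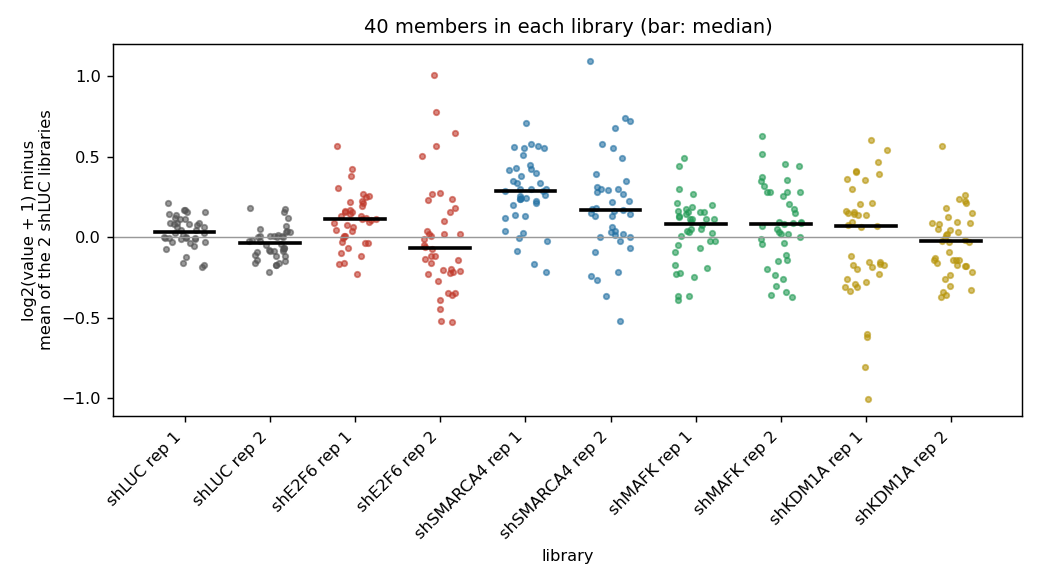
Log2(value + 1) of each of the 40 members minus its mean in the 2 shLUC libraries (vertical axis) in each of the 10 libraries (horizontal axis), with 1 point a member and a black bar at the median. The bars of shSMARCA4 lie at 0.29 and 0.17, those of shE2F6 at 0.11 and -0.07.

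MCM5 (chromosome 22, 35400063 to 35425430, plus strand), a subunit of the replicative helicase, was at 4852 and 4572 in shLUC and 6928 and 7040 in shSMARCA4. It was also at 6408 in both shMAFK libraries, at 5172 and 5536 in shE2F6 and at 3928 and 4612 in shKDM1A, so only the shLUC and shKDM1A values overlapped. The log2 change of MCM5 was 0.57 in shSMARCA4 (SE 0.14, 95% interval 0.25 to 0.88, limma adjusted p = 0.0583). POLE, the catalytic subunit of polymerase epsilon, was at 2726 and 2638 in shLUC and 3820 and 4426 in shSMARCA4, the 2 highest of its 10 values, with a log2 change of 0.62 (limma adjusted p = 0.078). BRCA2, a DNA repair gene, was at 651 and 718 in shLUC and 1009 and 1464 in shSMARCA4. The difference was 0.83 on the log2 scale (SE 0.26, limma adjusted p = 0.136), 0.56 without shSMARCA4 replicate 2 and 1.10 without replicate 1. The adjusted p-values of MCM5 and POLE passed the threshold when either shKDM1A library was left out (0.0147 for MCM5, and 0.0367 and 0.0364 for POLE), a fit that called 7.79% or 7.84% of all rows. With any 1 other library left out neither passed, and the adjusted p rose to 0.366 for MCM5 and 0.388 for POLE, both without shLUC replicate 2.

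Several markers of other cell types had values in shSMARCA4 that differed from those in shLUC. The mesoderm marker MIXL1 was at 1809 and 132 in shSMARCA4 and at 20 and 14 in shLUC. EOMES, also of mesoderm, was at 2430 and 724 in shSMARCA4 and at 14 and 34 in shLUC. The values of MIXL1 and EOMES together summed to between 10 and 58 in the other 6 libraries. FOXA2, the endoderm marker in the table, was at 792 and 170 in shSMARCA4 and at 0 to 4 elsewhere, and ZIC1 of ectoderm was at 462 and 1004 against 95 and 149 in shLUC. The other ectoderm markers did not rise in both libraries. TUBB3 was at 2200 and 2072 in shSMARCA4, below the 5536 and 3264 of shLUC. It passed the threshold in the limma F-test among the knockdowns, described below. NES was at 6143 and 3168 against 5300 and 6143 in shLUC. The 3 ectoderm markers together summed to 8805 and 6244 in shSMARCA4 and to 10931 and 9556 in shLUC, sums set mainly by NES and TUBB3. EOMES and FOXA2 were both at 0 in shE2F6 replicate 2 and shMAFK replicate 1. KRT7 of trophoblast was at 30 and 44 against 218 and 296. In limma against shLUC, MIXL1 (adjusted p = 0.0365), ZIC1 (adjusted p = 0.0147) and KRT7 (adjusted p = 0.00463) were called. EOMES, FOXA2 (limma adjusted p = 0.359), TUBB3 and NES were not called in that comparison. All 10 pluripotency markers were still present in shSMARCA4. Their summed values, which weight the rows with high values most, were 147694 and 116144 against 144278 and 146535 in shLUC. Their median log2 change was -0.17, with 4 of 10 means higher and 6 lower. Of these markers, both shSMARCA4 libraries lay below both controls for 5, against 25.4% of all rows. SOX2 was among them (4426 and 4748 against 6408 and 6928 in shLUC). Both lay above the controls for 1, NANOG (4613 and 3699 against 2512 and 2639), against 25.6% of all rows. None of the 10 was called in shSMARCA4 against shLUC in limma, where 4.18% of all rows were called. In the same test 3 lower and 1 higher had an unadjusted p under 0.05, against 8.53% and 7.78% of all rows. SOX2 was called in the F-test among the knockdowns. In shE2F6 the pluripotency marker with the smallest p was DNMT3B. It was at 35710 and 30768 in shE2F6 against 27326 and 25021 in shLUC (limma adjusted p = 0.901). The part of these markers in the level of the replication genes was not tested.

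In shMAFK the median log2 change of members was 0.09 (range -0.38 to 0.47), against 0.00 over all rows. MAFK is a small MAF transcription factor without an activation domain of its own. None of the 40 members was called in limma (0.0135% of all rows were), and 3 had an unadjusted p under 0.05 (7.5%, against 8.77%), 1 higher (4.27% of all rows) and 2 lower (4.49%). The mean was higher for 25 of 40 members (62.5%, against 49.1% of all rows). Both libraries lay above both controls for 13 members (32.5%, against 23.8%) and below them for 6 (15.0%, against 25.3%). MCM5 had a log2 change of 0.44 (limma adjusted p = 0.354). POLA2, the regulatory subunit of the primase complex with polymerase alpha, was at 1008 and 859 in shLUC and 711 and 720 in shMAFK, a log2 change of -0.38 (adjusted p = 0.507). TYMS (chromosome 18, 657604 to 673578, plus strand), thymidylate synthase, was at 1580 and 1662 in shLUC and 1259 and 1282 in shMAFK, a log2 change of -0.35 (adjusted p = 0.565). Licensing genes had a higher mean in 9 of 10 cases and polymerase genes in 2 of 7, with group medians of 0.16 and -0.05.

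In shKDM1A, where the histone demethylase KDM1A (LSD1) was targeted, the median log2 change of members was 0.00 (range -0.58 to 0.36), against -0.02 over all rows. None of the 40 members was called in limma (0.0271% of all rows were), and 2 had an unadjusted p under 0.05, both lower (5.0%, against 11.5% of all rows, of which 5.85% were higher and 5.61% lower). The mean was higher for 20 members, against 47.9% of all rows. The 2 lower members were TYMS, at 1052 and 1261 with a log2 change of -0.49 (limma adjusted p = 0.341), and CCNE2, at 152 and 196 in shLUC and 98 and 136 in shKDM1A with a log2 change of -0.58 (limma adjusted p = 0.43) that was -0.34 without shKDM1A replicate 1. POLA2 was at 737 and 740 in shKDM1A, with a log2 change of -0.33. Both libraries lay above both controls for 6 members (15.0%, against 17.9%) and below them for 10 (against 20.9%). The 2 libraries of this group differed widely over all rows (replicate SD 0.53). Over the 40 members their SD was 0.25, near the 0.24 of shE2F6 and the 0.23 of shSMARCA4. RFC5 was at 500 and 912. Without shKDM1A replicate 2, where the remaining library is assumed to vary like the other groups, TYMS and RFC5 were called (limma adjusted p = 0.0205 and 0.0146), which is 5.0% of members against 21.9% of all rows.

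The 4 comparisons share the shLUC libraries, so the knockdowns were also compared with each other. In limma's moderated F-test among the 4 knockdown means, 2 of 40 members passed (5.0%, against 6.64% of all rows): MCM5 (adjusted p = 0.0446) and TYMS (adjusted p = 0.0442). At an unadjusted p under 0.05 there were 6 (15.0%, against 23.6%), the others being POLA2, POLD1, POLE and RRM2. MCM5 was highest in shSMARCA4 and shMAFK and lowest in shKDM1A. TYMS was at 1998 and 1991 in shSMARCA4, 1631 and 1450 in shE2F6, 1259 and 1282 in shMAFK and 1052 and 1261 in shKDM1A. The shSMARCA4 libraries were above, and the shMAFK and shKDM1A libraries below, both shLUC values of TYMS. Neither call held without any 1 library of shLUC, shE2F6, shSMARCA4 or shMAFK (the highest adjusted p was 0.141 for MCM5 and 0.177 for TYMS, both without shSMARCA4 replicate 2), and both held without either shKDM1A library.

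**Figure D5:**
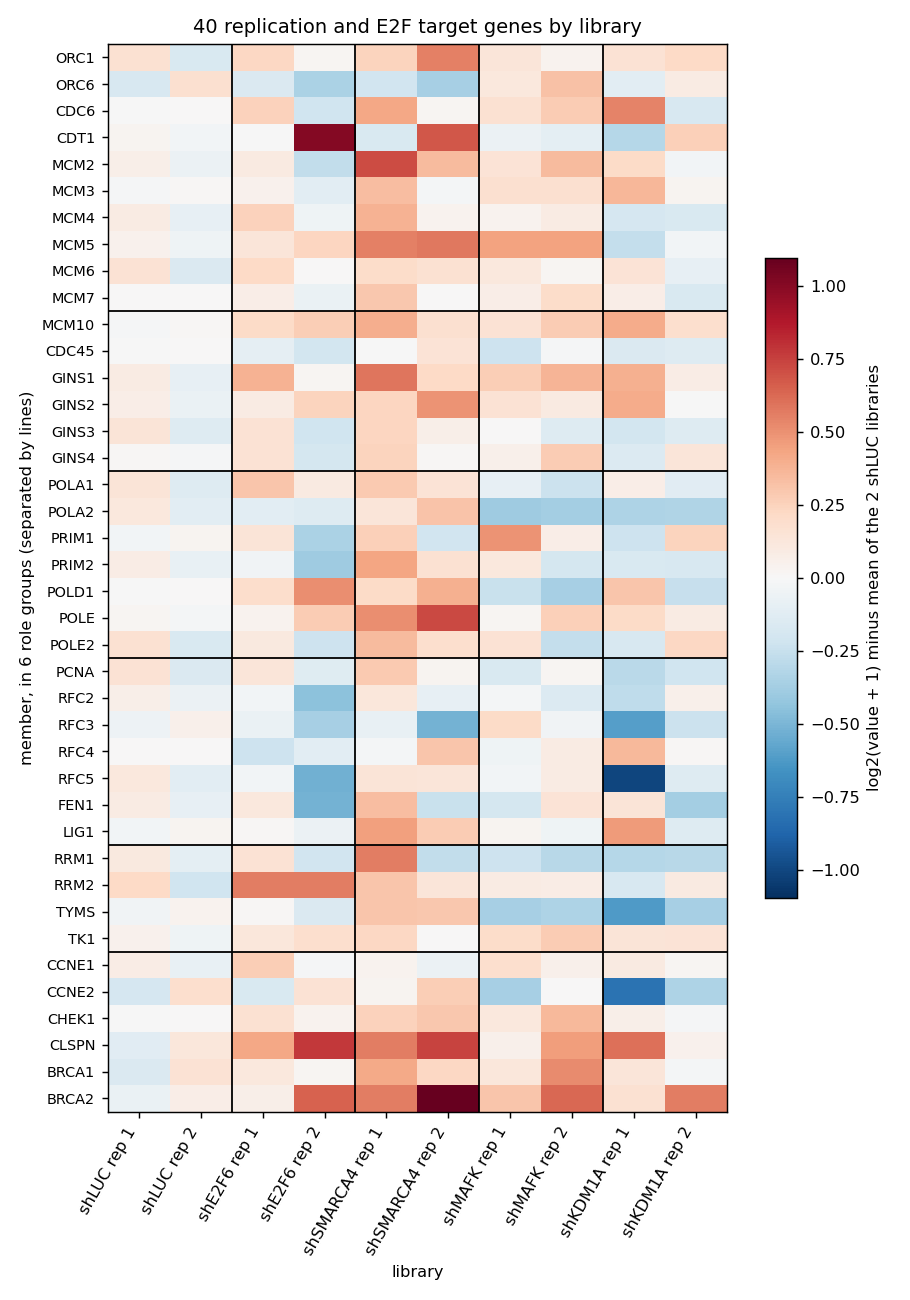
Log2(value + 1) of each of the 40 members (rows, in 6 role groups separated by lines) minus its mean in the 2 shLUC libraries, in the 10 libraries (columns), with red for higher and blue for lower values. The shSMARCA4 columns are red for 35 and 31 of 40 members; CDT1 in shE2F6 replicate 2 and RFC5 in shKDM1A replicate 1 are among the darkest cells.

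For 36 of 40 members the ratio of the highest to the lowest of the 10 libraries was under 2. The exceptions were CDT1 (2.5), BRCA2 (2.25), RFC5 (2.22) and CCNE2 (2.12). This ratio was not counted over all rows. The median absolute log2 change against shLUC was 0.14 over the members and 0.16 over all rows in shE2F6. These medians were 0.22 and 0.21 in shSMARCA4, 0.15 and 0.17 in shMAFK and 0.16 and 0.23 in shKDM1A. The lowest group mean was in shLUC for 12 members, shE2F6 for 11, shKDM1A for 11, shMAFK for 4 and shSMARCA4 for 2.

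Other genes of the pathway are given as counts and medians. The 34 other replication genes (such as the origin recognition subunits ORC2 to ORC5 and the replication protein A subunits) had a median log2 change of 0.00 in shE2F6 and 0.08 in shSMARCA4. In the 4 comparisons 0 of them were called, against 0.0% of all rows in shE2F6, 4.18% in shSMARCA4, 0.0135% in shMAFK and 0.0271% in shKDM1A. The 25 other E2F target genes had medians of 0.06 and 0.14, and 1 was called, in shSMARCA4, where 4.18% of all rows were called. This was MYBL2, the B-MYB factor of late cell cycle genes, at 3314 and 3025 in shLUC, 4390 and 6647 in shE2F6 and 5367 and 7313 in shSMARCA4. Its log2 change was 0.98 in shSMARCA4 (SE 0.22, limma adjusted p = 0.0405, and 0.271 without shLUC replicate 2) and 0.77 in shE2F6 (adjusted p = 0.797), or 0.47 without shE2F6 replicate 2. Both libraries of either group were above both controls for MYBL2, and replicate 2 was the higher, as for CDT1. The 12 genes of the E2F and RB family had medians of 0.05 and 0.10, with 0 called. The 4 DREAM and MuvB subunits had medians of 0.03 and 0.15, also with 0 called. Of these subunits, RBBP4 had the smallest p in shE2F6. It was at 4750 in both shLUC libraries and at 4487 and 4228 in shE2F6. E2F2, an activating E2F, was at 222 and 290 in shLUC and 390 and 353 in shE2F6, a log2 change of 0.55 (limma adjusted p = 0.969) that was 0.35 without shLUC replicate 1.

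Mitotic genes, which follow the replication genes in the cell cycle, had median log2 changes of 0.03 in shE2F6, 0.05 in shSMARCA4, -0.14 in shMAFK and -0.12 in shKDM1A. In shMAFK 18 of 20 of them had a lower mean while 25 of 40 members had a higher one. Of all rows, 49.1% had a higher mean in shMAFK. Across the 4 comparisons, 0 mitotic genes were called. The share of all rows called was 0.0% in shE2F6, 4.18% in shSMARCA4, 0.0135% in shMAFK and 0.0271% in shKDM1A. FOXM1, which had the smallest p of them in shE2F6, was at 2112 and 1859 in shLUC and 2257 and 2982 in shE2F6. CDKN1A, the p21 inhibitor of cyclin-dependent kinases, was at 235 and 148 in shLUC, 364 and 320 in shE2F6, 64 and 127 in shSMARCA4, 360 and 1170 in shMAFK and 162 and 136 in shKDM1A. It was below both controls in shSMARCA4 and above them in shE2F6 and shMAFK (F-test adjusted p = 0.0339, and up to 0.123 with 1 library left out). Of the 3 such inhibitors in the table, 1 had a higher mean in shE2F6 and 2 a lower one. CDKN1C was at 110 and 158 in shLUC and 72 and 48 in shE2F6, a log2 change of -1.15 (limma adjusted p = 0.962). CDKN1B was at 1050 and 1148 in shLUC and 944 and 819 in shE2F6. Germline genes known as E2F6 targets, of which 6 of 10 were in the table, had a median log2 change of -0.09 in shE2F6. Of these 6, 2 had a higher mean and 0 were called. TEX11, a meiotic gene of this list, was at 79 and 63 in shLUC and 121 and 112 in shE2F6, a log2 change of 0.71 (limma adjusted p = 0.963).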

How the data were processed

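RNA-seq libraries of H1 cells (5 groups of 2) were analysed from the deposited table of single libraries. The values are scores: whole numbers that the deposited table calls normalized tag counts. The method by which the authors normalized them is not given in the sources used here. Per the submitters' processing notes, STAR, STARsolo and the genome build hg38 were used, with no role or version stated. Totals are nearly equal, so read depth is unknown and no interval that needs it is given; differences in total RNA cannot be seen. How reads were shared between paralogs, overlapping genes or strands is not given either.

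Values were analysed as log2(value + 1), which understates changes of low rows. limma 3.58.1 in R 4.3.3 (mean-variance trend, two-sided) was fitted to all 14785 rows and 10 libraries, 5 groups with a shared spread and 5 residual degrees of freedom. A row mean of at least 10 was required, which removed no row. P-values were adjusted by the Benjamini-Hochberg method over all rows, with a threshold of 0.05; the moderated F-test used the 4 knockdown means. The code was tested on simulated data. Gene positions are from GENCODE 29 (GRCh38), and promoters from RefSeq. Values were summarised in pandas 2.3.3 (Python 3.11.15) and drawn in matplotlib 3.10.9. The members, role groups and other lists were chosen with earlier results of these data known, so no list was tested. Genes named with values were, in each role group, the member with the greatest change and that with the smallest p in shE2F6; the 3 smallest p in each other comparison; members past the threshold; the 4 targeted genes; and from each other list those past the threshold and the smallest p in shE2F6. Other genes were named after their values were seen. Alternatives covered the pseudocount, the filter, the scaling, the model of the variance, which libraries were fitted and the replicate number as a block.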

Additional observations from a re-analysis of the deposited data

Results flagged for a closer look

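MCM5 and TYMS are listed here because their levels differed among the 4 knockdowns by a direct test (limma's moderated F-test). The adjusted p was 0.0446 for MCM5, which was high in shSMARCA4 and shMAFK and low in shKDM1A. The adjusted p was 0.0442 for TYMS, which was high in shSMARCA4 and low in shMAFK and shKDM1A. Both calls lie close to the threshold of 0.05 and were lost under most alternatives: MCM5 stayed past it in 7 of 19 and TYMS in 9 of 19, and the adjusted p of MCM5 was 0.0704 with group weights. The highest adjusted p was 0.141 for MCM5 and 0.177 for TYMS, and the share of all rows past the threshold was 6.64%. No cause was tested. With groups of 2 libraries, single libraries could not be tested as outliers.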

How the results depend on the processing

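In shE2F6, 0 of 40 members were called under all 21 alternatives, and the median log2 change lay between -0.07 and 0.11. With a library left out, members called numbered 0 to 2 in shSMARCA4, 0 to 0 in shMAFK, 0 to 2 in shKDM1A and 0 to 6 in the F-test. The highest of these counts (5.0%, 5.0% and 15.0% of members) came from fits without a shKDM1A library, which called up to 7.84%, 21.9% and 35.9% of all rows. The median then lay between 0.14 and 0.29 in shSMARCA4, 0.02 and 0.14 in shMAFK and -0.04 and 0.07 in shKDM1A, and the number of members with a higher mean between 17 (without shE2F6 replicate 1) and 30 (without shE2F6 replicate 2) in shE2F6 and between 31 and 37 in shSMARCA4. The log2 change of CDT1 in shE2F6 turned to -0.01 without shE2F6 replicate 2 and was 1.01 without shE2F6 replicate 1. In shSMARCA4, 3 members were called with group weights (MCM5, POLE and BRCA2; 8.83% of all rows were called), 1 with only the 2 groups compared (MCM5; 6.2%) and 2 without both shKDM1A libraries (MCM5 and POLE; 7.86%). In shMAFK, 1 was called with group weights (MCM5; 3.29% of all rows). The F-test called 1 member with median centring (TYMS; 6.88% of all rows) and 0 with no mean-variance trend (6.45%). The causes were not tested.

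Replicate numbers were not treated as pairing the samples: correlations of replicate differences over all rows lay between -0.05 and 0.337, with 2 of 10 pairs of groups over 0.1. With the replicate number as a block, 1 member was called in shSMARCA4 (BRCA2, limma adjusted p = 0.0276; 4.35% of all rows) and 0 in the F-test (6.59%). The 2 libraries a group and the unknown depth limit precision: the SE of a member's log2 change had a median of 0.18.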

Other observations

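Of the 34 other replication genes, POLD4 and WDHD1 passed the threshold in the F-test among the knockdowns, which 6.64% of all rows also passed. POLD4, the smallest subunit of polymerase delta, was at 150 and 164 in shLUC, 82 and 154 in shE2F6, 251 and 220 in shSMARCA4, 60 and 54 in shMAFK and 144 and 125 in shKDM1A (limma F-test adjusted p = 0.0179, up to 0.0981 with 1 library left out). It was thus lowest in both shMAFK libraries and highest in both shSMARCA4 libraries, while POLD1, the catalytic subunit, had its highest means in shE2F6 and shSMARCA4. WDHD1, a factor that links the helicase to polymerase alpha, was at 2112 and 2701 in shLUC, 1928 and 2374 in shE2F6, 1998 and 2295 in shSMARCA4, 3651 and 5235 in shMAFK and 2223 and 1908 in shKDM1A (adjusted p = 0.0382, up to 0.279 without shMAFK replicate 2). Both shMAFK libraries were above all others for WDHD1. CDC7, the kinase that fires origins, was above both controls in 7 of 8 knockdown libraries, at 887 and 1026 in shLUC, 1142 and 1275 in shE2F6, 1323 and 1269 in shSMARCA4, 1264 and 1346 in shMAFK and 1008 and 1275 in shKDM1A.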
